A study of Mus musculus with 16 samples.

Results

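Type I interferon-stimulated genes were followed through sorted liver cells of mice aged 4 weeks. The set held 37 genes, chosen by symbol as targets of type I interferon, and all 37 were found among the 48795 gene identifiers of the count table. The mice were Ift88Orpk or wild type, of strain BALB/c or C57BL/6, and 4 cell populations were sorted from the livers: cells binding the lectin DBA (Dolichos biflorus agglutinin), which the labels call cholangiocytes, neutrophils, and infiltrating macrophages with high (Ly6Chi) or low (Ly6Clo) surface Ly6C. Ift88Orpk is a hypomorphic insertion allele of Ift88, a gene needed to build cilia, and is used as a model of fibrocystic liver and kidney disease. Each of the 16 groups was 1 RNA-seq library made from RNA of 6 to 8 mice of both sexes mixed in equal amounts, so no group had a replicate of its own. Comparisons therefore took the levels of the other factors as replicates, and their p-values measure only the spread between these libraries, some of which may come from the same mice.

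Type I interferons are cytokines released when a cell senses foreign or misplaced nucleic acid. They bind the receptor made of Ifnar1 and Ifnar2, whose kinases Jak1 and Tyk2 activate Stat2. With Irf9 it is part of the complex ISGF3, which binds a DNA element in the promoters of its targets and switches on antiviral effectors. The same genes are read at a low, tonic level in many resting cells, myeloid cells among them, and overlap with the targets of interferon gamma.

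The promoters of the members bear on this, since the core of the ISGF3 element can be looked for in them. The core was written as GAAANNGAAA and searched on both strands from 250 bases before to 50 bases after each transcription start in the RefSeq promoter table (build GRCm38.p6). At least 1 match lay in a promoter of 13 of the 27 members found in that table (48.1%), against 1079 of all 27025 genes in it (3.99%). Counted by promoter, it lay in 13 of 29 promoters of members (44.8%), against 1131 of all 32851 promoters of the same length (3.44%). The 3 sequences below belong to the members with a match that had the highest log2 fold change of Ly6Chi over Ly6Clo macrophages, given in full further on. They show how the element is placed. Each is the run of 250 bases before the start, read 5′ to 3′ on the strand of the gene, and capitals mark the matches.
Rsad2, chr12:26456453-26456702, minus strand: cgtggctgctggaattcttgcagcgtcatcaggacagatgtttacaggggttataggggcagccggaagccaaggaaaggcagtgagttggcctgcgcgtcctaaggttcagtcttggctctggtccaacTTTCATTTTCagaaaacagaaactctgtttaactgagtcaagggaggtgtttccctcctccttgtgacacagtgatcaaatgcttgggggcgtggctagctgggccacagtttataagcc
Oas3, chr5:120777660-120777909, minus strand: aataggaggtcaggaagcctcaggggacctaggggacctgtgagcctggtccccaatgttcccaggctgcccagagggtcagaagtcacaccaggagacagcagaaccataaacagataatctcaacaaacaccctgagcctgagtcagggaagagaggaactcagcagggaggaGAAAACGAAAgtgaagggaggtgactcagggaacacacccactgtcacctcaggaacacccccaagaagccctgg
Isg15, chr4:156200819-156201068, minus strand: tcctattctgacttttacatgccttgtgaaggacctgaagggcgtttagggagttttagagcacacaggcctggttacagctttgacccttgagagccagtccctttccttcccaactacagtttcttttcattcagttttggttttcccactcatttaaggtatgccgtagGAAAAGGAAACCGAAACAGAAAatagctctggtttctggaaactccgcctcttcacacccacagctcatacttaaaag
In Rsad2 the single match lay 120 to 111 bases before the start and was read on the opposite strand, as TTTCATTTTC. In Oas3 it lay 75 to 66 bases before the start. In Isg15 there were 3 matches, each overlapping the next, which formed a run of 22 bases from 78 to 57 bases before the start. A match describes these letters only, and says nothing of whether a factor was bound in these cells.

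All 37 members were counted in each population. Gene counts per library totalled 10170795 to 26093556, and 18357 to 21962 genes had at least 1 count. Levels are given as CPM (counts per 1000000 gene counts), scaled between libraries by the trimmed mean of M-values (TMM). Where 4 values are listed for a population they run BALB/c Ift88Orpk, BALB/c wild type, C57BL/6 Ift88Orpk, C57BL/6 wild type. In bulk RNA of sorted cells, fewer cells of a type and less RNA per cell cannot be told apart.

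The labels were checked against defining markers. Neutrophil libraries held 60.4 to 130.2 CPM of Ly6g, and Ly6c2 was at 238 to 295 CPM in Ly6Chi macrophages, against 4.10 to 17.0 CPM in Ly6Clo macrophages. Over 9 Ly6Chi monocyte markers these populations held 6287 to 8681 CPM and 1043 to 2453 CPM. A list of 8 Ly6Clo monocyte markers did not separate the leukocytes. It summed to 2168 to 3338 CPM in Ly6Clo, 2117 to 2786 CPM in Ly6Chi and 2045 to 3726 CPM in neutrophil libraries. In DBA-sorted cells the endothelial gene Stab2 averaged 4909 CPM and the duct keratin Krt19 139 CPM. There 11 sinusoidal endothelial markers summed to 15166 to 23233 CPM and 12 cholangiocyte markers to 3945 to 5653 CPM (119 to 846 CPM in leukocytes). These cells are therefore called here by the sort and not as cholangiocytes. The neutrophil library of BALB/c wild type stood apart, with 2755 CPM over 9 Ly6Chi monocyte markers (4511 to 5868 CPM in the other neutrophil libraries), and with 3448 CPM over 11 sinusoidal endothelial markers (770 to 2080 CPM in the others). Ift88 itself was at 0.538 times (BALB/c) and 0.880 times (C57BL/6) the wild-type level in Ift88Orpk DBA-sorted cells, and at 1.03 to 4.23 times in the 6 leukocyte pairs. Reads counted over the whole gene cannot tell the alleles apart, so the labels name the groups here.

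The members were at their highest in neutrophils and Ly6Chi macrophages and at their lowest in DBA-sorted cells. Their summed level was 1394 to 2152 CPM in DBA-sorted cells, 5615 to 7935 CPM in neutrophils, 4740 to 6442 CPM in Ly6Chi macrophages and 2684 to 2871 CPM in Ly6Clo macrophages. By mean level, 19 members were highest in neutrophils, 17 in Ly6Chi macrophages and 1, Bst2, in DBA-sorted cells. The lowest mean was in DBA-sorted cells for 26 members, in Ly6Clo macrophages for 7 and in neutrophils for 4. The ranges of the neutrophil and Ly6Chi libraries overlapped, and neither overlapped with Ly6Clo or DBA-sorted libraries. The order of neutrophils and Ly6Chi macrophages depended on the TMM scaling. Their mean sums were 6744 and 5353 CPM, while before scaling the members held a mean of 0.515% and 0.537% of gene counts.

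Which member led differed by population. Per kilobase of exon, Ifi27l2a, a small mitochondrial membrane protein, had the highest level of all members in Ly6Chi macrophages (mean 511 CPM per kb), Ly6Clo macrophages (162) and neutrophils (339.7). In neutrophils it was followed by Isg15 (134.9), Rsad2 (117.7), Oas3 (117.3) and Oas2 (111.0). In Ly6Chi macrophages Irf7 (101.7) and Parp14 (67.7) came next. DBA-sorted cells were led by Bst2, or tetherin, which holds budding virus at the cell surface (92.7 CPM per kb), before Parp14 (32.0).

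**Figure D1:**
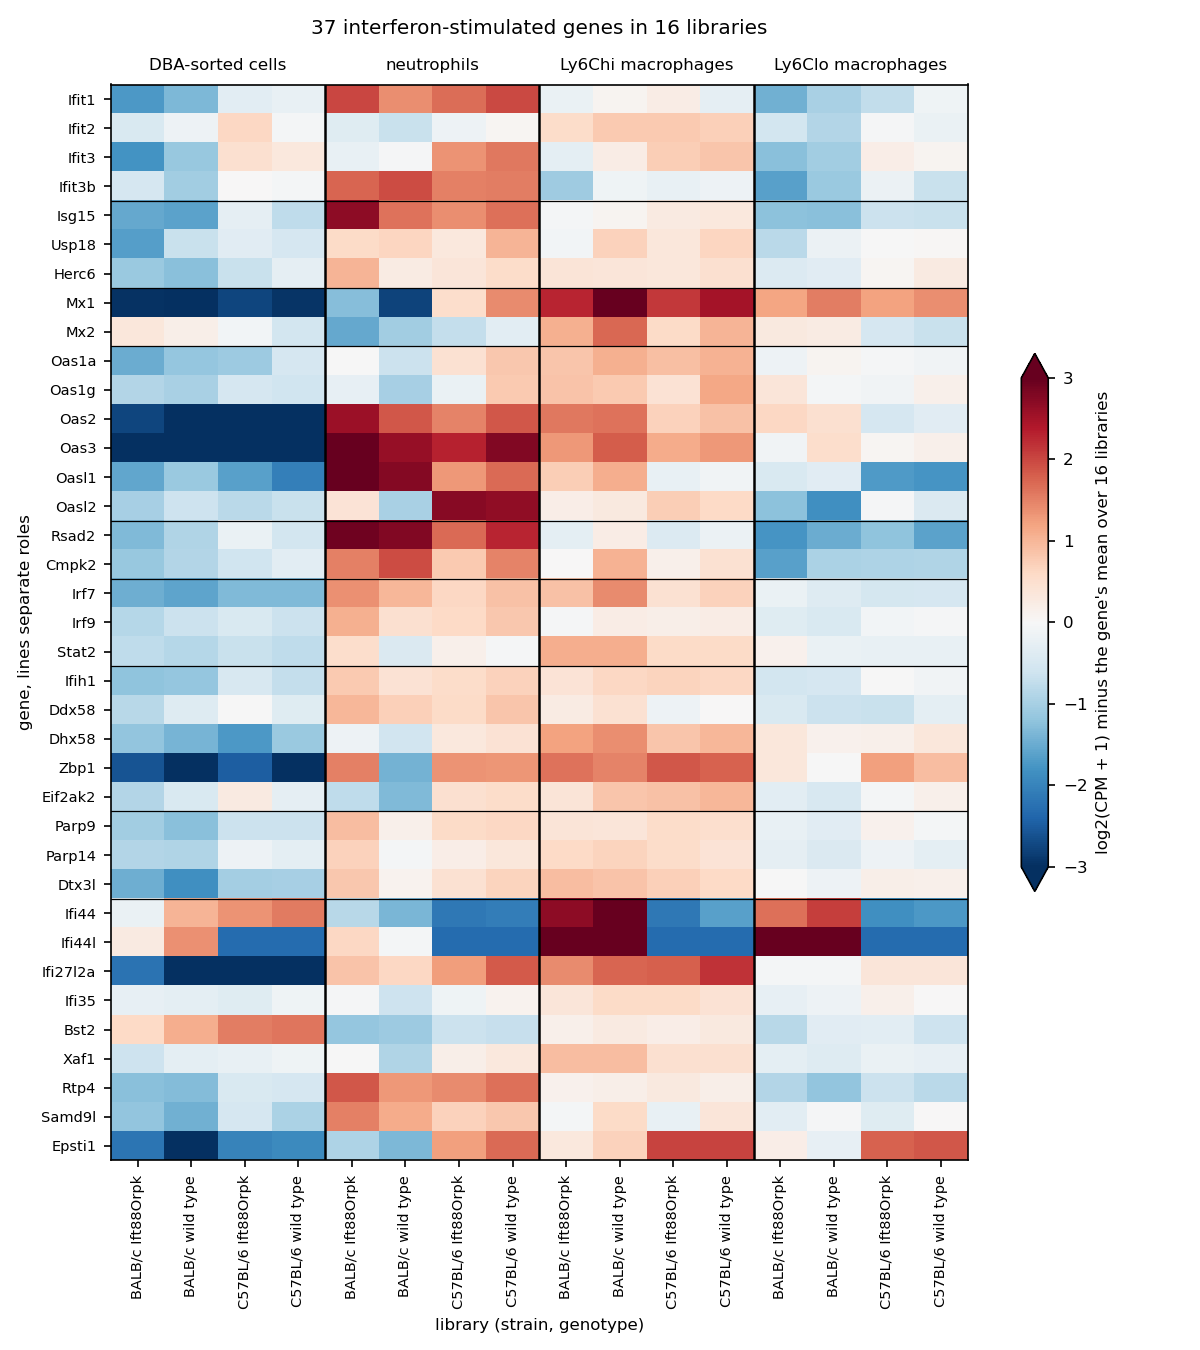
Level of each of the 37 members in each of the 16 libraries, as log2(CPM + 1) minus the member's mean over all libraries (colour scale). Rows are members grouped by role, and columns are libraries grouped by population. Most members are high in neutrophils and Ly6Chi macrophages and low in DBA-sorted cells, and Ifi44 and Ifi44l are high only in BALB/c macrophages among the leukocytes.

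Ly6Chi and Ly6Clo macrophages were compared in 8 libraries, with the combination of strain and genotype as a block. The interferon-stimulated genes were higher in Ly6Chi macrophages nearly as a whole: of 37 members, 34 rose and 0 fell at a Benjamini-Hochberg adjusted p under 0.05. Over the 16664 genes tested, 24.5% were called in either direction and 12.3% were called higher. The members' median log2 fold change was 0.95, against -0.01 over all genes tested. For 29 members the lowest Ly6Chi library was above the highest Ly6Clo library, which held for 9.02% of all genes. For 0 members was it the reverse (10.2% of all genes). In each of the 4 combinations of strain and genotype, 33 members were higher in Ly6Chi macrophages.

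Ifi27l2a had the largest difference. It was at 181.5, 225.2, 233.6 and 305.4 CPM in Ly6Chi macrophages, against 64.6, 64.4, 85.6 and 86.0 CPM in Ly6Clo macrophages. All Ly6Chi libraries lay above all Ly6Clo libraries, and in both populations C57BL/6 was higher than BALB/c. The log2 fold change was 1.63 ± 0.09 (SE, adjusted p = 2.7e-05), from means of 236 ± 51.4 and 75.2 ± 12.3 CPM (SD, n = 4 each). Cmpk2, a mitochondrial nucleotide kinase, was at 70.3, 145.1, 77.9 and 97.2 CPM in Ly6Chi macrophages, against 22.2, 35.6, 36.2 and 37.0 CPM in Ly6Clo macrophages. The groups did not overlap, and in both populations the BALB/c Ift88Orpk library was the lowest (log2 fold change 1.54 ± 0.14, adjusted p = 0.00015).

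Every functional group held members that rose. The Oas family, in which some members make the oligoadenylates that activate RNase L, rose in 6 of 6 members (median log2 fold change 1.17). Among them Oasl1, an Oas-like protein that holds back Irf7 translation in mice, rose by 1.48 (adjusted p = 1.0e-04) and Oasl2 by 1.34 (0.0013). Rsad2, or viperin, which makes a chain-terminating nucleotide, rose by 1.37 (adjusted p = 3.0e-04). The Mx GTPases, which trap viral nucleocapsids, rose in 2 of 2 members, with Mx2 at 1.28 (adjusted p = 7.6e-04). Many inbred laboratory strains carry defective Mx alleles, and these counts measure the transcript alone.

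The transcription factors Irf7, Irf9 and Stat2 all rose, with Irf7, the amplifier of interferon production, at 384 ± 116 against 155 ± 16.8 CPM. The nucleic acid sensors and effectors Ifih1 (MDA5), Ddx58 (RIG-I), Dhx58 (LGP2), Zbp1 and Eif2ak2 (PKR) rose in 5 of 5 members. The Isg15 system rose in 3 of 3: the ubiquitin-like modifier Isg15, its ligase Herc6 and Usp18, which removes it and also damps the receptor. Parp9, Parp14 and Dtx3l, which modify proteins with ADP-ribose or ubiquitin, rose in 3 of 3 members. Of the Ifit proteins, which bind foreign RNA, 3 of 4 rose, and of 9 other effectors 7 rose.

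The members that missed the threshold were Ifit3b (0.54, adjusted p = 0.080), Epsti1 (0.37, 0.089) and Ifi44 (0.68, 0.11). Among those that passed, the differences of Samd9l (0.33, adjusted p = 0.024) and Irf9 (0.37, 0.016) were the smallest. Leaving out 1 combination at a time gave 29 to 34 calls, and 30 members were called in every such fit that tested them. Among these 30, Ifi44l was tested in only 2 of the 4 fits. Without the block, 24 were called. Ly6Clo libraries also held more T and NK cell transcripts (221 to 1193 CPM over 10 markers, against 6.40 to 167 in Ly6Chi libraries) and dendritic cell transcripts (283 to 663 CPM over 8 markers, against 28.8 to 112). Their part in the result was not tested.

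**Figure D2:**
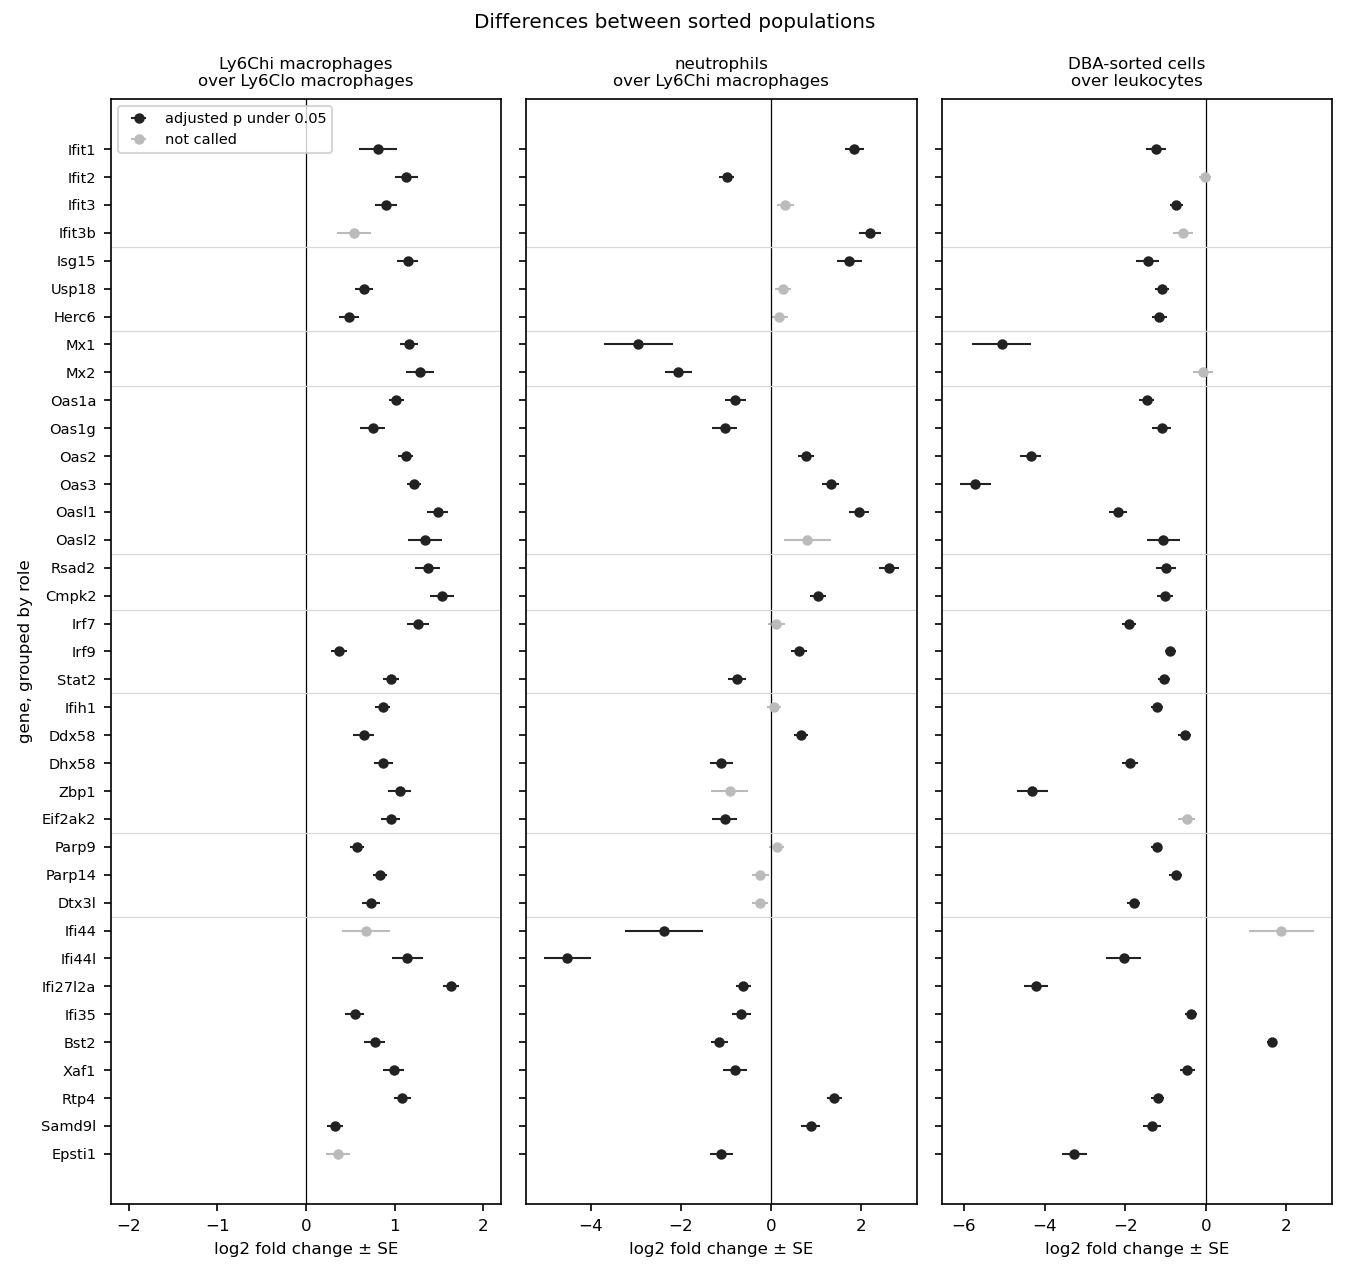
Log2 fold change (x axis, with bars of 1 SE) of each member (y axis, grouped by role) in contrasts between populations. Dark points mark members past an adjusted p of 0.05, and grey points mark the others. For Ly6Chi over Ly6Clo macrophages all 37 points lie above 0, while for neutrophils over Ly6Chi macrophages 12 called points lie above 0 and 15 below.

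Neutrophils were next compared with each macrophage population, in fits that share libraries with the comparison above and with each other. Against Ly6Chi macrophages the members split: 12 rose and 15 fell in neutrophils, where 23.3% and 24.1% of the 15931 genes tested did (47.5% in either direction). The members' median log2 fold change was 0.06, against -0.09 over all genes. Neutrophils were higher in Rsad2, Cmpk2, Isg15, Ifit1, Ifit3b, Oas2, Oas3 and Oasl1, and in Irf9, Ddx58, Rtp4 and Samd9l. They were lower in both Mx genes, in 7 of 9 other effectors, and in Ifit2, Oas1a, Oas1g, Stat2, Dhx58 and Eif2ak2. The Ifit and Oas members were thus split. Without overlap between libraries, 10 members were higher (20.9% of all genes) and 9 lower (24% of all genes).

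Ifi44l had the largest difference. It was at 6.65, 3.74, 0 and 0 CPM in neutrophils, against 83.7, 175.4, 0 and 0 CPM in Ly6Chi macrophages, so its value rests on the BALB/c libraries (log2 fold change -4.52 ± 0.52, adjusted p = 8.7e-04). The Ifi44l call was lost with DESeq2 and without the block. Mx1 was at 10.4, 3.02, 38.9 and 73.1 CPM in neutrophils, against 134.3, 225.8, 118.6 and 155.6 CPM in Ly6Chi macrophages. Every neutrophil library was below every Ly6Chi library, and the BALB/c neutrophils were lower than the C57BL/6 ones (-2.95 ± 0.77, adjusted p = 0.013). The Mx1 call was lost without the BALB/c Ift88Orpk combination (adjusted p = 0.072 with edgeR). Mx2 (-2.06, adjusted p = 9.3e-04) and Ifi44 (-2.38, adjusted p = 0.049), a cytoplasmic antiviral protein, also fell. The Ifi44 call was lost without either BALB/c combination (adjusted p up to 0.23), under both other scalings and with a filter of 5 CPM in 2 libraries.

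Rsad2 went the other way, at 683.1, 624.3, 294.1 and 439.6 CPM in neutrophils, against 73.7, 105.4, 66.9 and 79.1 CPM in Ly6Chi macrophages. The lowest neutrophil library was above the highest macrophage library (log2 fold change 2.62 ± 0.21, adjusted p = 7.1e-05). Ifit3b rose by 2.18 (adjusted p = 2.9e-04). Irf7 (0.12, adjusted p = 0.61), Ifih1 (0.06, 0.76) and Parp9 (0.13, 0.54) had the smallest differences. With 1 combination left out 19 to 26 members were called, and without the BALB/c wild type combination, whose neutrophil library stood apart, 13 were higher and 8 lower.

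Against Ly6Clo macrophages 22 members rose in neutrophils and 3 fell (Ifi44l, Ifi44 and Epsti1), beside 23.9% and 25.7% of the 16631 genes tested (49.6% in either direction). The median log2 fold change of the members was 0.71, against -0.16 over all genes. For 18 members every neutrophil library was above every Ly6Clo library (21.2% of all genes). The 3 falls rest on BALB/c. Ifi44l had no count in C57BL/6, and Ifi44 and Epsti1 lost their calls without either BALB/c combination (adjusted p up to 0.12 and 0.070). Epsti1 and Ifi44l also lost their calls without the block, and Ifi44l lost its call with DESeq2.

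Rsad2 was at 25.7, 31.4, 38.1 and 29.0 CPM in the Ly6Clo libraries, all far below the neutrophil values above (4.00 ± 0.31, adjusted p = 3.5e-05). Oasl1 was at 412.3, 265.5, 97.6 and 128.5 CPM in neutrophils, against 28.1, 30.4, 11.1 and 10.6 CPM in Ly6Clo macrophages. Within both populations BALB/c exceeded C57BL/6, and still no library of one population reached the other (3.45 ± 0.20, adjusted p = 1.3e-05). Isg15 (2.89), Ifit3b (2.74) and Ifit1 (2.66) rose as well, and Ifi44l fell by 3.35. Eif2ak2 (-0.07), Ifi35 (-0.10) and Zbp1 (0.11) did not pass the test. Leave-one-out counts were 20 to 25. Neutrophil libraries carried more hepatocyte transcripts (2295 to 4937 CPM over 10 markers) than Ly6Chi (556 to 1823 CPM) and Ly6Clo libraries (440 to 1553 CPM), and more Kupffer cell transcripts (1221 to 1987 CPM over 8 markers, against 59.8 to 154 and 133 to 302 CPM). Their part in these differences was not tested.

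DBA-sorted cells were set against the mean of the 3 leukocyte populations in all 16 libraries. Almost the whole set was lower in them: 31 members fell and 1 rose, beside 28.4% and 31.1% of the 19183 genes tested (59.5% in either direction). The median log2 fold change was -1.15 for the members and 0.02 for all genes. Every DBA-sorted library was below all 12 leukocyte libraries for 12 members (11.8% of all genes) and above all of them for 1 (16.4%).

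Oas3, the longest of the Oas enzymes, was at 8.63, 1.96, 6.31 and 9.63 CPM in DBA-sorted cells. Over the 12 leukocyte libraries its lowest, median and highest levels were 117, 313 and 1036 CPM. No DBA-sorted library came near the lowest leukocyte library (log2 fold change -5.72 ± 0.39, adjusted p = 1.7e-08). Mx1 was at 2.55, 0.201, 3.11 and 2.58 CPM in DBA-sorted cells, against 3.02, 72.5 and 226 CPM (lowest, median and highest) in leukocytes. The BALB/c wild type neutrophil library, the lowest of the leukocytes, fell within the DBA-sorted range, and the log2 fold change was -5.06 ± 0.73 (adjusted p = 3.5e-05).

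Oas2 (-4.34), Zbp1 (-4.30), Ifi27l2a (-4.21) and Epsti1 (-3.26) also fell. Bst2 was the member that rose, at 52.9, 73.9, 102.1 and 105.9 CPM in DBA-sorted cells, against 14.8, 24.4 and 42.6 CPM (lowest, median and highest) in leukocytes. All DBA-sorted libraries were above all leukocyte libraries (log2 fold change 1.65 ± 0.12, adjusted p = 4.1e-08). Ifit2 (-0.01, adjusted p = 0.95) and Mx2 (-0.06, 0.86) did not pass, nor did Ifit3b, Eif2ak2 and Ifi44 (1.88, 0.060), and Ifi35 fell by 0.36 (0.044), a call lost in each of the 4 fits that left out a combination (adjusted p up to 0.32) and with every gene of 1 count kept. With 1 combination left out 28 to 32 members were called. Sinusoidal endothelial markers summed to 15166 to 23233 CPM in DBA-sorted libraries, against 610 to 3448 CPM in leukocytes, and their part in these levels was not tested.

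Strain was tested within each population, BALB/c over C57BL/6, with the genotypes as replicates (2 libraries against 2) in a fit of all 16 libraries. In both macrophage populations the strains differed most in a pair of neighbouring genes, Ifi44 and Ifi44l, which lie 8776 bases apart on chromosome 3. Ifi44l had 0 counts in all 8 C57BL/6 libraries and 141 to 4616 counts per population in BALB/c. In neutrophils and DBA-sorted cells other members differed more than Ifi44 did, and in each population 2 to 4 members passed the test.

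**Figure D3:**
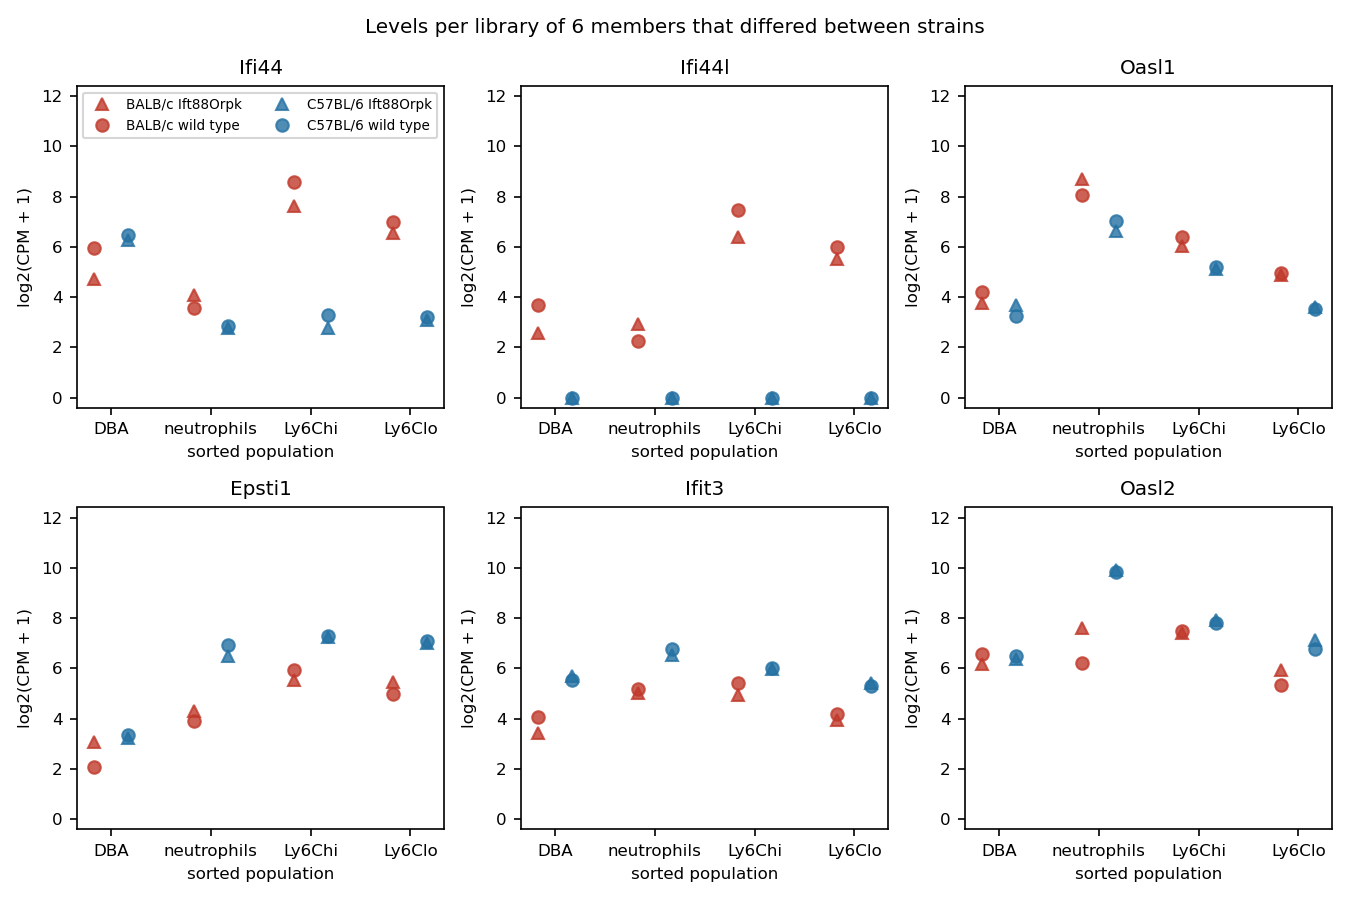
Level as log2(CPM + 1) (y axis) of Ifi44l, Ifi44, Epsti1, Oasl2, Oasl1 and Ifit3 in each library, by population (x axis), with BALB/c points left of C57BL/6 points and genotype shown by the marker. Ifi44l lies at 0 in every C57BL/6 library. Ifi44 lies higher in BALB/c than in C57BL/6 in macrophages, and lower in BALB/c in DBA-sorted cells, where it was not called.

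In Ly6Chi macrophages 2 members were called higher in BALB/c and 0 lower, where 0.334% of 21534 genes were called. Without overlap 13 members were higher in BALB/c and 9 lower, beside 21.3% and 24.4% of all genes. Ifi44 was at 193.6 and 379.2 CPM in BALB/c Ly6Chi macrophages (Ift88Orpk, wild type), against 5.89 and 8.77 CPM in C57BL/6 ones. Both BALB/c libraries lay far above both C57BL/6 libraries (log2 fold change 5.20 ± 0.34, adjusted p = 0.0012), and the call held with each library left out. Ifi44l was at 83.7 and 175.4 CPM in BALB/c Ly6Chi macrophages, which is at least 1577-fold higher than C57BL/6, set to a floor of 3 counts over the group, but it passed the test in 0 of the 4 fits that left out a Ly6Chi library.

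In Ly6Clo macrophages the same 2 members were called higher, where 0.306% of all genes were called. Of 37 log2 fold changes 24 were below 0, with a median of -0.23 (all genes 0). Without overlap 20 members were lower in BALB/c and 7 higher, beside 24.3% and 21% of all genes. Ifi44 was at 93.8 and 126.4 CPM in BALB/c Ly6Clo macrophages, against 7.55 and 8.17 CPM in C57BL/6 ones (3.81 ± 0.32, adjusted p = 0.0041). Ifi44l was at 45.1 and 63.3 CPM in BALB/c, at least 904-fold higher than C57BL/6. Again no libraries of the strains overlapped, but with any 1 of the 4 Ly6Clo libraries left out neither gene passed.

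In neutrophils 4 members were called, 1 higher and 3 lower in BALB/c, where 1.34% of all genes were (0.353% higher and 0.984% lower). Oasl2, an Oas-like protein, was at 191.5 and 73.4 CPM in BALB/c neutrophils, against 960.2 and 919.5 CPM in C57BL/6 ones, a fall of 2.93 on the log2 scale (adjusted p = 0.0092). Epsti1 was at 18.8 and 13.8 CPM in BALB/c neutrophils, against 88.03 and 122.0 CPM in C57BL/6 ones (-2.63 ± 0.37, adjusted p = 0.017). Both genes separated the strains without overlap. In all, 13 members were lower in BALB/c without overlap and 8 higher, beside 22% and 14.8% of all genes. Ifit3 also fell (-1.55, adjusted p = 0.031), and Ifi44l was at least 41.3-fold higher in BALB/c. With each neutrophil library left out in turn, Oasl2 was called in 4 of 4 fits and Epsti1 in 2 of 4, lost without the wild type library of either strain, while Ifit3 and Ifi44l were called in 0 of 4. Ly6Chi monocyte markers summed to less in BALB/c wild type neutrophils, as given above, and their part in these values was not tested.

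In DBA-sorted cells 1 member rose and 1 fell in BALB/c, where 0.297% of all genes were called. Ifit3 was at 9.63 and 15.8 CPM in BALB/c DBA-sorted cells, against 50.5 and 45.3 CPM in C57BL/6 ones (-1.92 ± 0.27, adjusted p = 0.028). Ifi44l, at 4.95 and 11.9 CPM in BALB/c, was at least 107.6-fold higher than in C57BL/6. Most other members leaned to lower levels in BALB/c, with 31 of 37 log2 fold changes below 0 and a median of -0.56 (all genes -0.02). For 26 members both BALB/c libraries were below both C57BL/6 libraries, which held for 21.8% of all genes. With each DBA-sorted library left out in turn, Ifit3 was called in 1 of 4 fits, the one without C57BL/6 wild type, and Ifi44l in 0 of 4. The BALB/c Ift88Orpk DBA-sorted library held 9541 CPM of stellate cell and fibroblast transcripts (9 markers), against 1839 to 4278 CPM in the other DBA-sorted libraries, and their part was not tested.

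Ifi44 went against the direction seen in macrophages in these cells. It was at 25.3 and 60.1 CPM in BALB/c DBA-sorted cells, against 76.2 and 88.8 CPM in C57BL/6 ones (-1.04, not called). The difference between the strain effects in DBA-sorted cells and in leukocytes, a test added after the data were seen, was -4.44 ± 0.36 on the log2 scale (adjusted p = 0.013), where 0.0139% of genes were called. That call was kept in 8 of the 16 fits that leave out a library, and lost without either wild type DBA-sorted library, any Ly6Chi library or either wild type Ly6Clo library.

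A second comparison added after the data were seen took strain across the 12 leukocyte libraries, 6 against 6, where 9.22% of 18334 genes were called. It called 5 members higher and 5 lower in BALB/c, where 4.73% and 4.49% of genes were. Ifi44l was at least 2319-fold higher in BALB/c leukocytes. The lowest, median and highest levels of Epsti1 were 13.8, 36.7 and 60.6 CPM in BALB/c leukocytes, against 88.03, 132 and 154 CPM in C57BL/6 ones. The strains did not overlap (log2 fold change -1.97 ± 0.19, adjusted p = 9.6e-05). It was the 1 member lower without overlap (1.03% of all genes), and Ifi44 and Ifi44l were the 2 higher without overlap (1.01%).

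Also higher in BALB/c leukocytes were Oasl1 (1.41 ± 0.14, adjusted p = 1.1e-04), Oas2 (0.83, 0.0014), Ifi44 (3.57, 0.0033) and Irf7 (0.46, 0.038). Lower in BALB/c were Ifit3 (-1.23 ± 0.14, adjusted p = 2.4e-04), Ifi27l2a (-0.51, 0.020), Oasl2 (-1.50, 0.024) and Eif2ak2 (-0.73, 0.047). So close relatives parted: Oasl1 was higher and Oasl2 lower in BALB/c, although the genes are neighbours, 11005 bases apart on chromosome 5. Ifi44l, Ifi44, Epsti1, Oasl1, Oas2 and Ifit3 were called in all 12 fits that left out 1 library, Oasl2 and Ifi27l2a in 9 of them, Irf7 in 2 and Eif2ak2 in 1. The fewest calls, 6, came without the C57BL/6 Ift88Orpk Ly6Clo library.

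Genotype was tested in the same way, Ift88Orpk over wild type within each population, with the strains as replicates. No member passed in any population, and neither did any other of the 21534 genes (0% called). With edgeR at an unadjusted p under 0.05 there were 2 members in DBA-sorted cells, 3 in neutrophils, 4 in Ly6Chi macrophages and 0 in Ly6Clo macrophages. In the same order 1140, 934, 408 and 348 of all 21534 genes had such a p. DESeq2 called 0 members in each. The members' median log2 fold change was 0.05 in DBA-sorted cells, 0.18 in neutrophils, -0.19 in Ly6Chi macrophages and -0.01 in Ly6Clo macrophages.

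In Ly6Chi macrophages 29 of 37 values were below 0. Samd9l, a regulator of translation, was at 219 and 194 CPM in Ift88Orpk Ly6Chi macrophages (BALB/c, C57BL/6), against 339 and 290 CPM in wild type ones. Cmpk2 was at 70.3 and 77.9 CPM in Ift88Orpk Ly6Chi macrophages, against 145.1 and 97.2 CPM in wild type ones. In both genes the genotypes did not overlap, as for 9 members lower in Ift88Orpk (12% of all genes), yet the log2 fold changes of -0.61 ± 0.21 and -0.69 ± 0.25 did not pass (adjusted p = 1 each). Mx2 (-0.57) and Ifi44 (-0.79) followed in order of p.

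In neutrophils Stat2 was at 226 and 174 CPM in Ift88Orpk (BALB/c, C57BL/6), against 115 and 152 CPM in wild type (0.61 ± 0.24, adjusted p = 1). Oasl2 was at 191.5 and 960.2 CPM in Ift88Orpk neutrophils, against 73.4 and 919.5 CPM in wild type ones (0.74 ± 0.32, adjusted p = 1). The Stat2 libraries did not overlap between genotypes, while those of Oasl2 did. Without overlap 2 members were higher in Ift88Orpk and 1 lower, beside 13.2% and 8.89% of all genes. Zbp1 (1.52) and Cmpk2 (-0.55) came next in order of p.

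In DBA-sorted cells Ifi44 was at 25.3 and 76.2 CPM in Ift88Orpk (BALB/c, C57BL/6), against 60.1 and 88.8 CPM in wild type (-0.74 ± 0.29, adjusted p = 0.90). Ifi44l was at 4.95 and 0 CPM in Ift88Orpk, against 11.9 and 0 CPM in wild type (-1.25 ± 0.42, adjusted p = 0.91). Ifi44 was lower in Ift88Orpk in both strains and Ifi44l in BALB/c, the strain in which it was counted, but the genotypes overlapped. Ifi27l2a (0.83) and Oas1a (-0.49) followed in order of p. In Ly6Clo macrophages Ifit1 was at 11.5 and 19.5 CPM in Ift88Orpk, against 16.5 and 30.1 CPM in wild type (-0.59 ± 0.29, adjusted p = 1), with overlap. Samd9l was at 182 and 177 CPM in Ift88Orpk, against 222 and 230 CPM in wild type, without overlap (-0.34 ± 0.21, adjusted p = 1). Without overlap 3 members were lower in Ift88Orpk and 1 higher in this population, beside 11.1% and 13.5% of all genes. Oasl2 (0.49) and Cmpk2 (-0.37) came next in order of p. None of these passed the test.

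Single pairs of libraries showed how the strains differed in neutrophils. In BALB/c, 31 members were higher in Ift88Orpk neutrophils and 6 lower, with a median log2 ratio of 0.55 (CPM with 1 CPM added). In C57BL/6, 4 were higher and 32 lower, with a median of -0.23. Over 11278 genes with a mean of at least 5 CPM the medians were 0.04 and -0.002, with 52.3% and 49.7% higher. The TMM factors of Ift88Orpk and wild type were 0.646 and 0.81 in BALB/c, and 0.861 and 0.772 in C57BL/6. Before this scaling the members held 0.513% and 0.455% of gene counts in BALB/c, and 0.529% and 0.562% in C57BL/6. Zbp1, a sensor of Z-form nucleic acid, had the largest ratio, at 162 CPM in Ift88Orpk against 20.5 CPM in wild type neutrophils of BALB/c, and 145 against 142 CPM in those of C57BL/6. The BALB/c wild type neutrophil library, which stood apart in its markers and had the lowest member sum of the neutrophil libraries (5615 CPM, against 6149 to 7935 CPM), enters every BALB/c ratio here, and its part was not tested. With 1 library per group the difference between the strains was not tested.

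**Figure D4:**
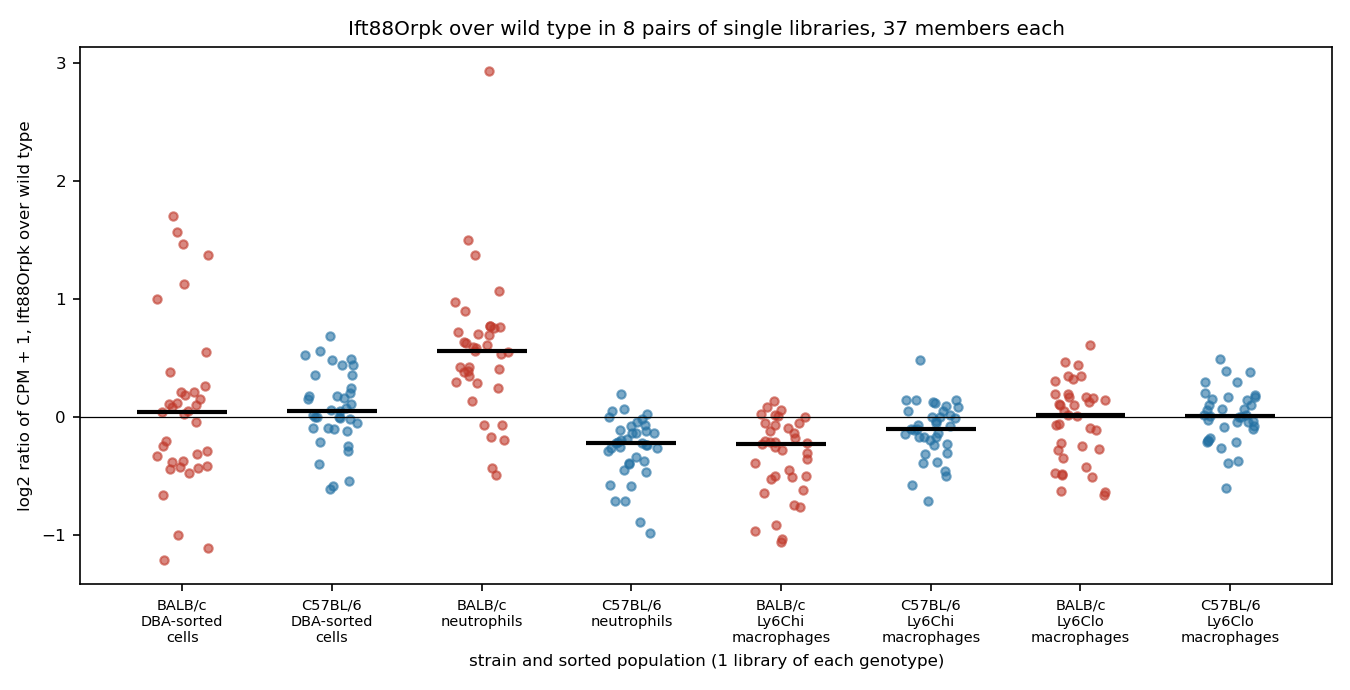
Log2 ratio of Ift88Orpk over wild type (y axis, CPM with 1 CPM added) for each of the 37 members, in each population and strain (x axis), 1 pair of libraries each. The lines mark the medians, which lie at 0.55 in BALB/c neutrophils and -0.23 in C57BL/6 neutrophils, and between -0.23 and 0.05 in the other 6 pairs.

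In the other pairs the medians were 0.04 (BALB/c) and 0.05 (C57BL/6) in DBA-sorted cells, -0.23 and -0.10 in Ly6Chi macrophages, and 0.01 and 0.00 in Ly6Clo macrophages. Stat2 and Zbp1 were higher in Ift88Orpk in all 6 leukocyte pairs, as were 3.95% of the 11278 genes with a mean of at least 5 CPM over all libraries. Usp18 and Cmpk2 were lower in all 6, as were 2.77% of those genes. These are 5.41% of the members in each direction.

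Genotype was also tested across the leukocyte populations of each strain, 3 libraries against 3. In BALB/c leukocytes 1.99% of 18334 genes were called and 0 members (0 with DESeq2), with a median log2 fold change of 0.04. With edgeR 3 members had an unadjusted p under 0.05, beside 2244 of the 18334 genes. Cmpk2 came closest (-0.74 ± 0.23, adjusted p = 0.16). It was at 201.5, 70.3 and 22.2 CPM in Ift88Orpk neutrophils, Ly6Chi and Ly6Clo macrophages of BALB/c, against 273.2, 145.1 and 35.6 CPM in wild type, lower in each population. Usp18 had 49.3, 30.9 and 18.2 CPM in those Ift88Orpk libraries, against 51.8, 53.1 and 28.8 CPM in wild type (-0.52 ± 0.19, adjusted p = 0.26), likewise lower in each. Zbp1 (0.97) and Stat2 (0.39) followed.

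In C57BL/6 leukocytes 0.0218% of genes were called and 0 members (0 with DESeq2). With edgeR 1 member had an unadjusted p under 0.05, beside 741 of all genes tested. Oas1g was at 10.1, 16.3 and 10.9 CPM in Ift88Orpk neutrophils, Ly6Chi and Ly6Clo macrophages, against 21.0, 27.5 and 13.3 CPM in wild type (-0.72 ± 0.30, adjusted p = 1). Ifi27l2a was at 161, 234 and 85.6 CPM in Ift88Orpk, against 243, 305 and 86.0 CPM in wild type (-0.33 ± 0.17, adjusted p = 1). Both were lower in Ift88Orpk in each of the 3 populations, with little distance in Ly6Clo macrophages for Ifi27l2a. Samd9l (-0.36) and Ddx58 (-0.27) followed.

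The strain by genotype term, which tests whether the genotype effects differ between strains, called 0.529% of genes and 0 members (0 with DESeq2). With edgeR 1 member had an unadjusted p under 0.05, beside 1534 of all genes tested. Oas1g had the smallest p there (1.14 ± 0.43, adjusted p = 0.44). In BALB/c it was at 9.83, 22.3 and 15.6 CPM in Ift88Orpk neutrophils, Ly6Chi and Ly6Clo macrophages, against 5.39, 21.0 and 11.2 CPM in wild type, higher in each population, where in C57BL/6 it was lower in each. Oas2 was second (0.47 ± 0.23, adjusted p = 0.66). In BALB/c it was at 736, 370.4 and 191.0 CPM in those Ift88Orpk libraries, against 446, 385 and 173 CPM in wild type. In C57BL/6 it was at 345, 199.8 and 86.0 CPM in Ift88Orpk, against 449, 225 and 97.6 CPM in wild type. Oas2 was thus lower in Ift88Orpk in each C57BL/6 population, and in BALB/c in Ly6Chi macrophages alone. Ifit3b (-0.77) and Ddx58 (0.32) followed.

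The pathway around the members was described from lists of its ligands, receptors and kinases, transcription factors, sensing proteins and negative regulators. Of 21 interferon ligand genes 18 had no count in any library, Ifnb1 among them, and Ifnab had 2 counts in all. In a library 3 counts would be 0.115 to 0.295 CPM. Reads not uniquely aligned (7.02 to 11.18% per library) were set aside, so reads shared between similar ligand genes would be missed. Ifnk, interferon kappa, was counted, with a mean of 0.614 CPM in DBA-sorted cells, 1.10 CPM in neutrophils, 5.98 CPM in Ly6Chi macrophages and 5.65 CPM in Ly6Clo macrophages. Interferon gamma, which acts through a receptor of its own, was mainly counted in Ly6Clo macrophages, at 0.447 ± 0.505 CPM in Ly6Chi against 6.87 ± 3.48 CPM in Ly6Clo macrophages (log2 fold change -4.10, called lower). T and NK cell markers were high in the same Ly6Clo libraries, as given above.

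The receptor chains were counted in every population. Ifnar1 averaged 114 ± 12.8 CPM in DBA-sorted cells, 245 ± 87.7 CPM in neutrophils, 234 ± 49.8 CPM in Ly6Chi macrophages and 195 ± 47.4 CPM in Ly6Clo macrophages. Of 9 receptor and kinase genes, 4 rose and 1 fell in Ly6Chi against Ly6Clo macrophages (12.3% and 12.2% of all genes), among them Ifngr2 (0.58), Ifnar2 (0.45) and the falling Jak2 (-0.57). Against leukocytes, 1 rose and 8 fell in DBA-sorted cells (31.1% and 28.4% of all genes). Among 6 transcription factors 3 rose and 0 fell in Ly6Chi against Ly6Clo macrophages, beside the same 12.3% and 12.2% of all genes, Irf5 (0.53), Irf1 (0.52) and Irf2 (0.31), and of 11 sensing and adaptor genes 6 rose and 1 fell, led by Myd88, Tlr7 and Ikbke.

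In BALB/c leukocytes the Ift88Orpk libraries had higher Ifnar1 (0.77 ± 0.15, adjusted p = 0.026) and Il10rb (0.80, adjusted p = 0.037), while no member passed. The same term for Ifnar1 in C57BL/6 leukocytes was -0.01 and was not called, and the difference between the strains did not pass (0.78 ± 0.21, adjusted p = 0.17). Between strains, Ifnar2 was higher in BALB/c leukocytes (0.92, adjusted p = 5.6e-04).

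Sequence and position limit some of these values. Ifit3 with Ifit3b, and Oas1a with Oas1g, are close copies, and 7.02 to 11.18% of reads per library were set aside as not uniquely aligned, so their levels are uncertain. Dtx3l and Parp9 overlap by 682 bases on opposite strands of chromosome 16. Whether the counting used strand is not given in the sources used here, and their reads in that stretch cannot be told apart without it. Rsad2 and Cmpk2 lie 12751 bases apart on chromosome 12 on opposite strands and do not overlap. The processing notes name the build GRCm38.p4, and the part of sequence differences between the strains in the strain results was not tested.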

How the data were processed

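Per the labels' protocols, livers were digested, cells were flow sorted, and RNA (integrity number over 7) of several mice was mixed in equal amounts, depleted of ribosomal RNA and sequenced in pairs of 75-base reads. Per the submitters' processing notes the tools were STAR, HTSeq, bcl2fastq 2.18.0.12 and Cufflinks 2.2.1, and the build GRCm38.p4. The deposited values are raw counts of reads per Ensembl gene, made by the authors with HTSeq-count 0.9.1 per the labels. The annotation release and strand setting were not stated in the sources. Of 48795 identifiers, 48349 matched a symbol in GENCODE vM21, and 5 summary lines were kept out of library sizes. Between 44.75 and 57.28% of reads per library lay in genes and 2.23 to 3.95% were ambiguous.

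Counts were filtered with filterByExpr, scaled by TMM (factors 0.646 to 0.861 in neutrophils, 0.915 to 1.22 in the others) and tested with edgeR 4.0.16 in R 4.3.3 (quasi-likelihood test, Benjamini-Hochberg adjustment over all genes tested, threshold 0.05). All adjusted p values are from this test. SE was derived from the log2 fold change and its F statistic. Population contrasts were blocked by the 4 combinations of strain and genotype. For strain and genotype, 1 model of the 16 libraries gave each population its own strain and genotype effects, and a model of the 12 leukocyte libraries held a strain by genotype term. Single pairs were given as untested log2 ratios after adding 1 CPM. The floor for a group at 0 was 3 counts over the group. Floors cover counting error only.

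Alternatives were other scalings (upper quartile, relative log expression), keeping every gene with 1 count, requiring 5 CPM in 2 libraries, DESeq2 1.42.0, no block, each population alone, and leaving out each library or combination. Where this left 1 library on a side, it was assumed to vary like the others. Tables and figures were made with Python 3.11.15, numpy 2.4.6 and pandas 2.3.3. The count test was tested on simulated data.

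The members, the lists and the tests were chosen with earlier results of these data known, and 2 comparisons were added after the data were seen. Where over 10 members were called the text names the 6 largest and 3 smallest log2 fold changes, where 10 or fewer were called it names all, and where none was it names the 4 with the smallest p. Levels of the first 2 are given per library. Members named by role or for their place beside another gene, and Bst2, stand outside this rule. Authors' FPKM values were not used here. A gene of the pathway lists is not reported here.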

Additional observations from a re-analysis of the deposited data

Results flagged for a closer look

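In 5 of 148 groups of 4 libraries (each member in each population) 1 library lay far from the other 3, by Dixon's test at the 95% level. Chance alone would mark about 1 in 20 groups, or 7. In BALB/c Ift88Orpk Ly6Chi macrophages Ifit3b was at 7.79 CPM, below the 14.6 to 15.7 CPM of the other Ly6Chi libraries. In BALB/c Ift88Orpk neutrophils Isg15 was at 172.7 CPM, above the 69.4 to 83.6 CPM of the other neutrophil libraries. In BALB/c Ift88Orpk Ly6Clo macrophages Cmpk2 was at 22.2 CPM (35.6 to 37.0 CPM in the others) and Stat2 at 171.7 CPM (134 to 137 CPM in the others). In BALB/c wild type neutrophils Zbp1 was at 20.5 CPM, below the 142 to 162 CPM of the other neutrophil libraries, and this library also stood apart in its marker sums.

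The strain effect on Ifi44 differed between DBA-sorted cells and leukocytes by -4.44 on the log2 scale (adjusted p = 0.013 with edgeR). It was -1.04 in DBA-sorted cells, 1.18 in neutrophils, 5.20 in Ly6Chi macrophages and 3.81 in Ly6Clo macrophages.

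In neutrophils the members' median log2 ratio of Ift88Orpk over wild type was 0.55 in BALB/c and -0.23 in C57BL/6, a difference of 0.78 in opposite directions. Over genes with a mean of at least 5 CPM the medians were 0.04 and -0.002. Each strain gave 1 pair of libraries, and the difference was not tested. The BALB/c wild type library of the pair held 3448 CPM of sinusoidal endothelial markers (770 to 2080 CPM in the other neutrophil libraries) and the lowest member sum of the neutrophil libraries, and its part was not tested.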

How the results depend on the processing

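The labels number no replicates, so the population contrasts were paired by the combination of strain and genotype, used as the replicate block. Without this block 24 members were called for Ly6Chi over Ly6Clo macrophages, 21 for neutrophils over Ly6Chi, 23 for neutrophils over Ly6Clo macrophages and 30 for DBA-sorted cells over leukocytes. These 4 counts stayed within 1.5 times of the reported ones in every alternative run. Strain counts within a population did not. With 5 CPM in 2 libraries they were 0 (DBA-sorted cells), 1 (Ly6Chi) and 1 (Ly6Clo), and Ifi44l lost its call in each. With each population alone they were 1 (DBA-sorted cells), 2 (neutrophils), 5 (Ly6Chi) and 4 (Ly6Clo). DESeq2 called 6 in Ly6Clo macrophages, 8 in neutrophils and 2 for the difference between cell kinds. Leave-one-out counts ran from 0 to 1 in DBA-sorted cells, 1 to 3 in neutrophils, 1 to 1 in Ly6Chi macrophages, 0 to 0 in Ly6Clo macrophages, 0 to 1 for the difference between cell kinds and 6 to 10 across leukocytes. The cause was not tested.

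Signs turned for 15 values, all of members that had not passed the test. For neutrophils over Ly6Chi macrophages, leave-one-out log2 fold changes ran from -0.055 to 0.14 for Ifih1, -0.017 to 0.27 for Irf7 and -0.019 to 0.22 for Parp9, the lowest without the BALB/c Ift88Orpk combination. For neutrophils over Ly6Clo macrophages they ran from -0.26 to 0.17 for Eif2ak2 (0.096 without the block), -0.23 to 0.014 for Ifi35 and -0.28 to 0.58 for Zbp1. For DBA-sorted cells over leukocytes they ran from -0.10 to 0.12 for Ifit2 (0.012 without the block) and -0.21 to 0.17 for Mx2. For genotype in DBA-sorted cells Ifi27l2a ran from -0.013 to 1.66. Another 921 values of named members kept their sign and side of the threshold, 101 lost a call and 1 gained one. No member changed sign in a contrast between populations under another scaling. The median for genotype was -0.012 in DBA-sorted cells with upper-quartile factors, against 0.05 as reported.

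With 1 library per group, the genotype tests rest on the spread between strains. Members at few counts, such as Mx1 in DBA-sorted cells, have wide counting error.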

Other observations

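Of 15 genes more closely tied to interferon gamma, 8 rose and 3 fell in Ly6Chi against Ly6Clo macrophages, beside 12.3% and 12.2% of all genes. Cxcl9, a chemokine for T cells, rose by 1.95 (adjusted p = 3.2e-04 with edgeR), while Ciita, the activator of MHC class II genes, fell by 1.29 (2.0e-04) and Cd74, the class II invariant chain, fell by 1.44 (7.1e-04). Dendritic cell markers were higher in the same Ly6Clo libraries, and their part in the Ciita and Cd74 values was not tested. Between strains across leukocytes, 4 of the 15 fell in BALB/c and 0 rose (4.49% and 4.73% of all genes), led by the proteasome activator genes Psme1 (-0.63, adjusted p = 0.0025) and Psme2 (-0.67, 0.0042) and by Cxcl9 (-1.72, 0.0044). In BALB/c leukocytes Cxcl9 was also lower in Ift88Orpk than in wild type (-2.13 ± 0.43, adjusted p = 0.030).

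Of 10 negative regulators tested, 5 rose and 0 fell in Ly6Chi against Ly6Clo macrophages (12.3% and 12.2% of all genes), with Samhd1, which destroys free nucleotides, at 1.12 (adjusted p = 4.2e-05 with edgeR). Socs3, an inhibitor of Jak signalling, was higher in neutrophils than in Ly6Chi macrophages (2.17, adjusted p = 3.7e-04).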
